A study of Mus musculus with 3 samples.

Results

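Integrins and cadherins are the surface receptors by which a cell holds on to its matrix and to its neighbours. In the array annotation, 44 genes carried an integrin alpha (15), integrin beta (8) or classical and related cadherin (21) symbol of the form Itga, Itgb or Cdh plus a number or a single subunit letter, out of 18193 genes with a probe set of 1 symbol. Symbols of binding partners such as Itgb1bp1 and relatives such as Itgbl1 were not taken. The members were read by 92 probe sets, groups of short probes near the 3' end of a transcript, and the probe set with the highest mean over the arrays stood for its gene. RNA came from MC3T3-E1 cells, a clonal preosteoblast line from mouse calvaria that the labels give as C57BL/6. All cultures were kept for 3 days at 37 °C in MEM alpha with 10% fetal bovine serum. The sample labels list no further addition for the normal medium. To make it osteogenic, beta-glycerophosphate was added at 10 mM with ascorbic acid 2-phosphate at 150 µM, and the last medium was the osteogenic one with 0.6% dimethyl sulfoxide (DMSO) as well. There was 1 Affymetrix array for each medium and no replicate, so no difference here has a test or an error between cultures, and precision is limited by that number.

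An integrin is a pair of 1 alpha and 1 beta subunit that binds collagen, laminin or proteins with an Arg-Gly-Asp (RGD) motif outside the cell and is tied to actin through talin and other adaptors inside it. A cadherin binds the same kind of cadherin on the next cell when calcium is present, and its tail is held to actin by catenins. In bone, integrins carry the attachment of osteoblasts to collagen and RGD proteins, and cadherin-11 and N-cadherin are the cadherins best known from osteoblasts.

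The deposited log2 values ran from 0.652 to 13.4 and had been brought to one scale, with medians of 3.54, 3.58 and 3.54 in normal, osteogenic and DMSO-treated osteogenic medium. Values under 3.54, the 50th percentile over the probe sets of all arrays, were raised to that level, called the floor, before differences were taken. A gene is called measured where its mean over the 3 arrays exceeded the floor, which held for 11350 genes. A difference of at least 1.5-fold, 0.585 on the log2 scale, is called higher or lower. For scale, the change of a single probe set had an SD of 0.132 in osteogenic against normal medium and 0.106 with DMSO, taken from the brightest pair of probe sets of the 5183 genes with a pair above the floor on all arrays, which leaves out the spread between cultures. Probe sets with exactly equal values on all arrays were kept in it, and pairs made of such probe sets lower the SD. Of the osteoblast markers, 6 of 10 had a probe set of 1 symbol and all 6 were above the floor on every array. Markers of other cell types were above it for 5 of 10 leukocyte, 2 of 8 endothelial, 3 of 8 epithelial and 3 of 8 skeletal muscle genes on each array. Those above it on every array included Lyz2 (5.96 in normal medium), Laptm5 (4.75), Csf1r (4.66), Cd14 (4.54) and Fcer1g (4.06) of leukocytes. They also included Egfl7 (4.97) of endothelium, and Epcam (4.53), Cldn3 (4.34) and Krt8 (3.58) of epithelium. Of skeletal muscle they were Acta1 (5.17), Des (5.06) and Ckm (3.87). Ptprc, Cd68 and Tyrobp of leukocytes, Pecam1 and Tek of endothelium, Krt18 and Esrp1 of epithelium, and Myod1 and Myog of muscle were below the floor on every array.

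Of the 44 members, 22 were measured, 9 integrin alpha, 5 integrin beta and 8 cadherin genes. A further gene, Itgb4, was above the floor on 1 array only. The other 21 lay below the floor on all 3 arrays. These were Itga2, Itga4, Itga7, Itgae, Itgam, Itgax, Itgb2, Itgb6, Cdh4, Cdh5, Cdh6, Cdh7, Cdh8, Cdh9, Cdh10, Cdh15, Cdh16, Cdh17, Cdh18, Cdh19 and Cdh23. They include the leukocyte subunits of the alpha-M, alpha-X and beta-2 chains, VE-cadherin of endothelium (Cdh5) and M-cadherin of muscle (Cdh15). A value below the floor shows only that the array gave no signal above that of the dimmer probe sets.

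**Figure D1:**
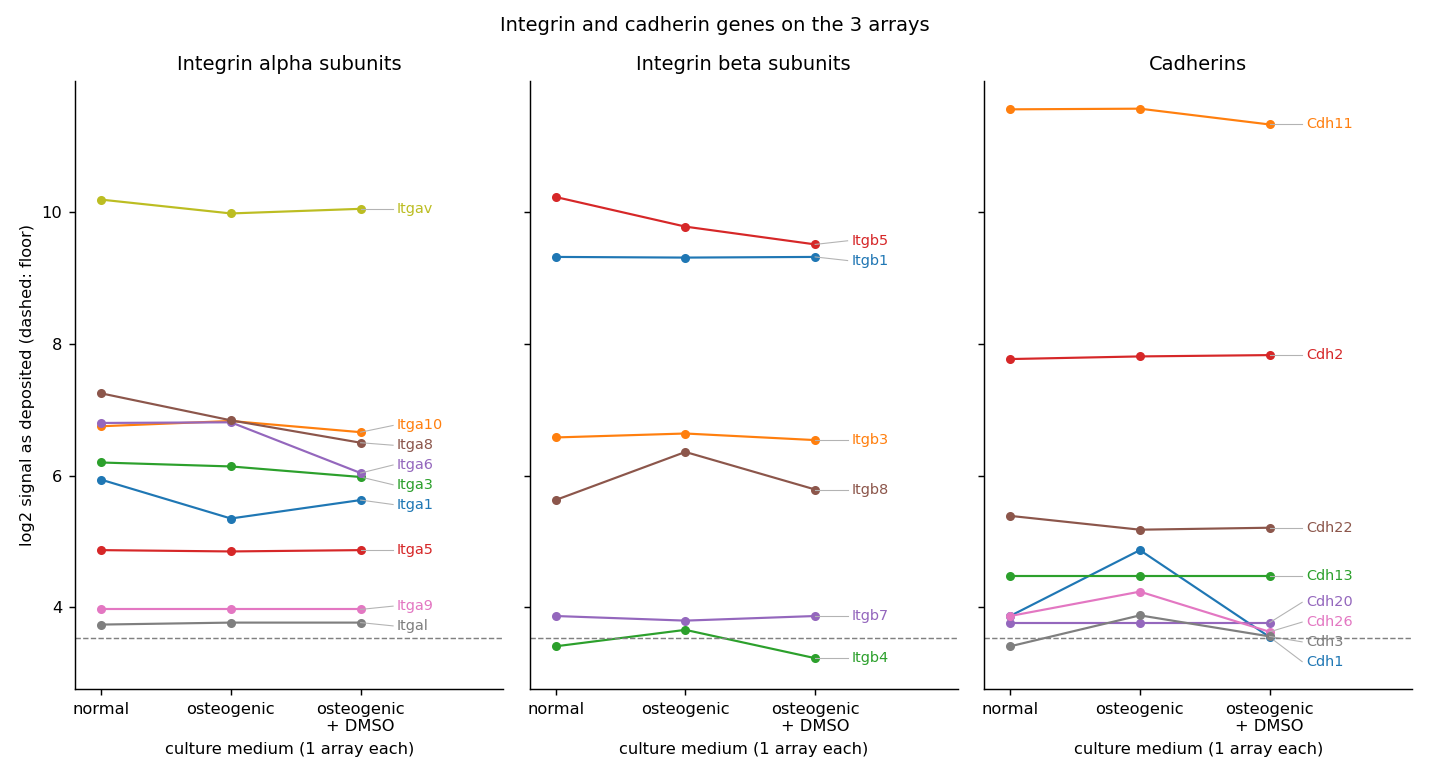
Deposited log2 signal of the 23 members above the floor on at least 1 array, by culture medium, with 1 point for each array and the floor of 3.54 dashed. Itgb5 and Itga8 step down from medium to medium, Itga6 drops with DMSO only, and Itgb8 and Cdh1 peak in osteogenic medium; signals of different genes come from different probes and cannot be ranked against each other.

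Osteogenic medium was compared with normal medium to see what 3 days of differentiation medium changed. Most members differed by less than 1.5-fold, and the larger differences lay in a few genes. Itgb8 and Cdh1 were higher, Itga1 was lower, and Itgb5 and Itga8 were lower by amounts short of 1.5-fold. In all, 2 of 22 measured members were higher at least 1.5-fold, where 199 of all 11350 measured genes (1.75%) were, and 1 of 22 was lower, where 181 genes (1.59%) were. No member passed 2-fold in either direction, where 0.467% of genes were higher and 0.185% lower. The median difference of the members was 0.00, as it was over all measured genes. A lower signal in such bulk RNA can come from fewer cells with the transcript or from less of it in each cell, which cannot be told apart. Counts of 1 and 2 genes do not set the members apart from the rest of the array.

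DMSO within osteogenic medium was the comparison the series was built around, since the labels report more alizarin red S staining, a stain for calcium deposits, with 0.6% DMSO. Every difference past 1.5-fold ran downward. Cdh1, Itga6 and Cdh26 were lower at least 1.5-fold, 3 of 22 members against 240 genes (2.11%) of the array, and none was higher, against 0.344%. Cdh1 alone was lower at least 2-fold, against 0.546% of genes, and no member was higher by that much, against 0.0529%. The members' median was -0.05, beside 0.00 for all genes. The osteogenic array stands in both comparisons with opposite signs, so a value that is high on that array alone appears as a rise followed by a fall.

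**Figure D2:**
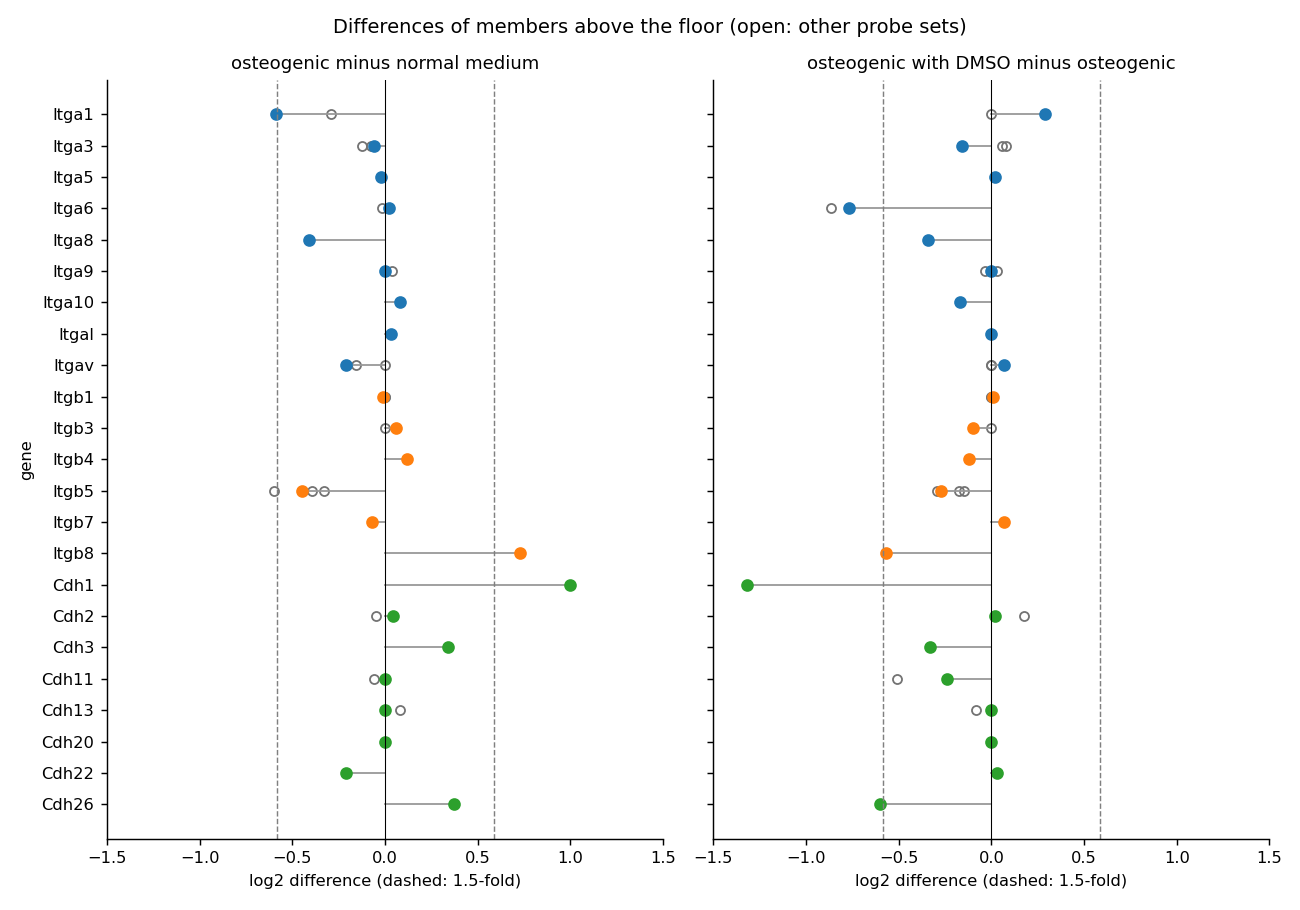
Log2 differences of the 23 members above the floor on at least 1 array (filled: probe set that represents the gene, blue for integrin alpha, orange for integrin beta, green for cadherin; open: other probe sets above the floor), with dashed lines at 1.5-fold. With DMSO, Cdh1 reaches -1.32 and Itga6 -0.77, and the open circle of Itga6 lies beside its filled one.

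Among receptors for laminin, the protein net of basement membranes, Itga6 gave the clearest pattern. It encodes the alpha-6 subunit, which pairs with beta-1 or beta-4. Its log2 signal was 6.80 in normal medium, 6.81 in osteogenic medium and 6.04 with DMSO. The first pair of arrays was thus alike, and the DMSO array stood below both. The 6.81 of Itga6 was held by 31 probe sets on the osteogenic array. The difference with DMSO was -0.77, 1.71-fold lower, and 142 of the 11350 measured genes were as low or lower. Its other probe set read 5.5, 5.48 and 4.62, a difference of -0.86 with DMSO and -0.02 before it. Itga3, whose alpha-3 subunit also binds laminins with beta-1, read 6.20, 6.14 and 5.98. Its difference with DMSO was -0.16, but its other probe sets went the other way, at 0.06 and 0.08. The probe set with 0.08 was near the floor, at 3.66, 3.58 and 3.66. Itgb4, the laminin-binding partner of alpha-6 in epithelial hemidesmosomes, was 3.41, 3.66 and 3.23 and exceeded the floor in osteogenic medium only. Itga7, the muscle laminin receptor, was below the floor.

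The receptors for RGD proteins moved in different directions. Itgb5, whose beta-5 subunit forms the vitronectin receptor with alpha-v, read 10.23, 9.78 and 9.51. It was lower by 0.45 on the log2 scale in osteogenic medium and lower by a further 0.27 with DMSO. From normal medium to osteogenic medium with DMSO the difference was -0.72, 1.65-fold lower, and 329 genes were as low or lower. Its other 3 probe sets kept this order, with values of 10.17, 9.78 and 9.48 for the next brightest, 10.19, 9.59 and 9.42, and 9.37, 9.03 and 8.88. They differed by -0.33 to -0.60 in the first step and by -0.15 to -0.30 in the second, so all 4 stepped down both times.

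Itga8 encodes the alpha-8 subunit, which pairs with beta-1 and binds nephronectin and other RGD proteins. It read 7.25, 6.84 and 6.50, with differences of -0.41 and -0.34 and a whole difference of -0.75, 1.68-fold lower. The 6.50 was held by 42 probe sets on the DMSO array. The second probe set of Itga8 sat at 3.41 on every array, below the floor, and gave no check. Itgb8, whose beta-8 subunit with alpha-v activates latent TGF-beta, went the other way at first. It had 1 probe set, at 5.63, 6.36 and 5.79. Osteogenic medium was thus higher by 0.73, 1.66-fold, with 113 genes as high or higher, and with DMSO the signal was 1.48-fold lower, just short of 1.5-fold. The 6.36 of Itgb8 was held by 33 probe sets on the osteogenic array. The DMSO array lay 0.16 above normal medium.

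The common partners of these subunits differed by less than 1.5-fold in each step. Itgav, the alpha-v subunit shared by the beta-3, beta-5 and beta-8 receptors, was 10.19, 9.98 and 10.05, a difference of -0.21 and then 0.07. Itgb3, which makes the other vitronectin receptor, was 6.58, 6.64 and 6.54. Itgb1, the beta-1 partner of most alpha subunits, was 9.32, 9.31 and 9.32. Its other 2 probe sets above the floor held exactly equal values on all arrays, 8.77 and 7.14. Equal values on all 3 arrays were seen for 37.4% of all probe sets without controls. Why they arose was not tested, so these 2 give no separate check of a steady level. Itga5, the fibronectin receptor subunit, was 4.87, 4.85 and 4.87 on a probe set whose name ending marks probes shared between transcripts.

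Of the collagen receptors, Itga1 differed most. Its alpha-1 subunit pairs with beta-1 and binds collagen IV in particular. The signal was 5.94, 5.35 and 5.63, lower by 0.59 on the log2 scale in osteogenic medium, 1.51-fold, and higher by 0.29 with DMSO, so normal medium stayed the highest of the arrays. The 5.94 of normal medium was held by 48 probe sets on that array. The other probe set of Itga1 was at 3.83 in normal medium and below the floor in both osteogenic media. The 1.5-fold call was lost by a narrow margin under quantile normalization of the arrays, at -0.58. Itga10, a collagen receptor subunit known from cartilage, was 6.75, 6.83 and 6.66, and Itga2 was below the floor.

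The remaining integrin genes were near the floor. Itga9, which binds tenascin and other ligands, was at 3.97 on all 3 arrays. Itgal and Itgb7, both known from lymphocytes, were at 3.74, 3.77 and 3.77 and at 3.87, 3.80 and 3.87. Leukocyte markers read on the same arrays had 5 of 10 genes above the floor on each array and a summed linear signal of 178, 153 and 143. The value 3.87 that Itgb7 had in normal medium was held by 382 probe sets on that array, and the 3.97 of Itga9 by 321, so these levels carry little information about the gene.

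**Figure D3:**
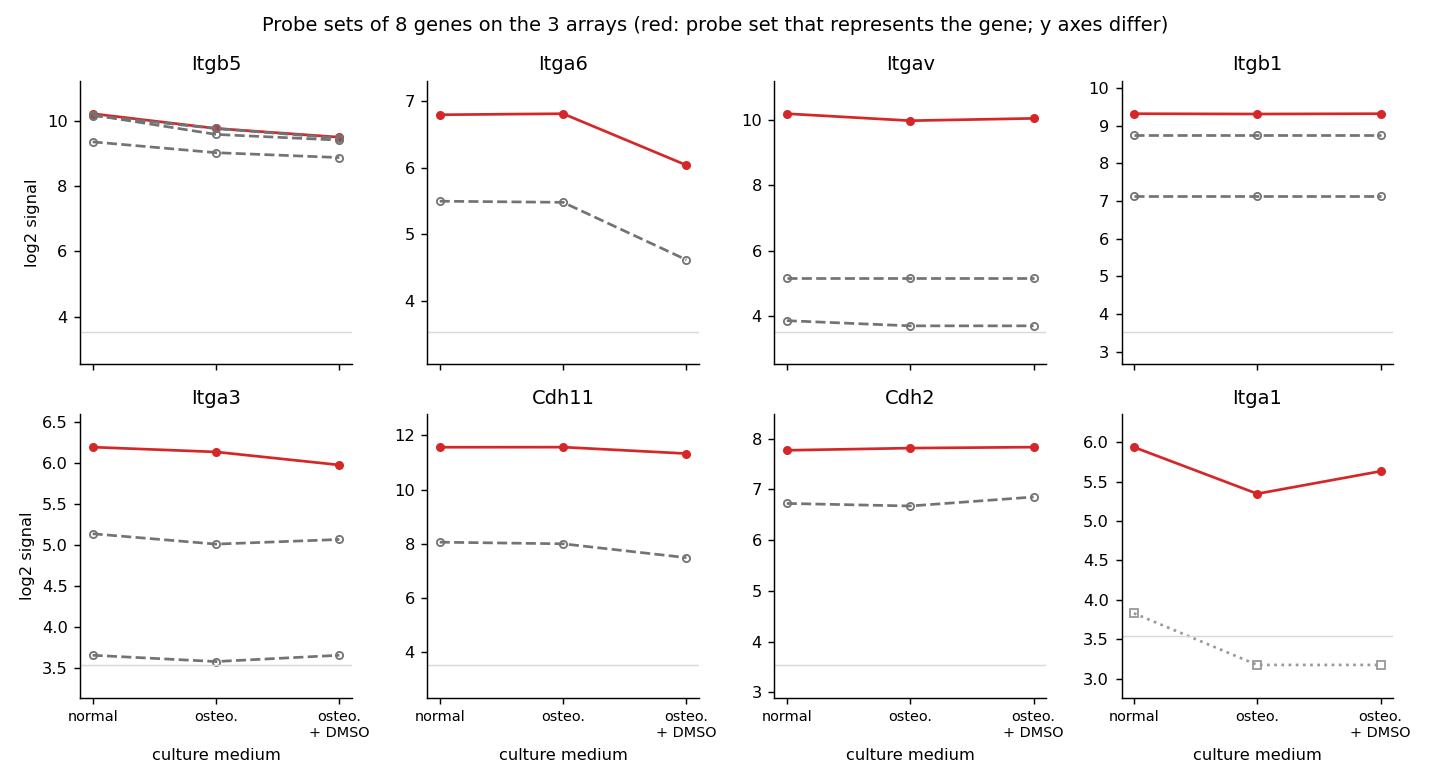
Log2 signal of the probe sets of 8 members by culture medium, 1 point for each array (red: probe set that represents the gene; grey dashed: others above the floor on all arrays; dotted squares: above it on some; light line: floor; y axes differ). All 4 probe sets of Itgb5 step down, both probe sets of Itga6 drop with DMSO, and those of Itgb1 stay level, the grey ones at exactly equal values that give no separate check.

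The promoters of the integrin genes that differed most and had an entry in the sequence table are printed here to show what stands before the start of genes that stepped down together (Itgb5 and Itga8), peaked in osteogenic medium (Itgb8) or dipped in it (Itga1). The sequences are RefSeq's for GRCm38.p6, 5′ to 3′ on the gene's strand, from 250 bases before to 50 bases after the annotated start, at chr16:33829415-33829714 (plus strand) for Itgb5, chr2:12301895-12302194 (minus) for Itga8, chr12:119238227-119238526 (minus) for Itgb8 and chr13:115101915-115102214 (minus) for Itga1. Capitals mark GGGCGG on either strand, the core of the GC box read by Sp1-type factors.
Itgb5: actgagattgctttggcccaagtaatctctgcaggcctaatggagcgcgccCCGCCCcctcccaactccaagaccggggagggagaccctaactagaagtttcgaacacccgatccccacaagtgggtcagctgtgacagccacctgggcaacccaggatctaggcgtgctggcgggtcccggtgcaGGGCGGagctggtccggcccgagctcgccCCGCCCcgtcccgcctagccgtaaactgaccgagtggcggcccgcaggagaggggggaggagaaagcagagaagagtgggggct
Itga8: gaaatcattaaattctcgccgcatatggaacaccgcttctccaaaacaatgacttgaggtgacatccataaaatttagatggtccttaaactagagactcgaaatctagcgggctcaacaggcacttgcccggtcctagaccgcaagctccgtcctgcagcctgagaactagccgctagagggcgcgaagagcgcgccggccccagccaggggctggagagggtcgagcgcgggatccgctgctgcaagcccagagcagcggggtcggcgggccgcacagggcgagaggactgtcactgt
Itgb8: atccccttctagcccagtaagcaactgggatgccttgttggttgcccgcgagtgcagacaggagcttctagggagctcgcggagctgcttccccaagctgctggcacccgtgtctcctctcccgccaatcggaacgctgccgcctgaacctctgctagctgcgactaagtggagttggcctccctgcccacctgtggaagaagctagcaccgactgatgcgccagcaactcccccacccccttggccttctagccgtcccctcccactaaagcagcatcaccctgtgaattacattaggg
Itga1: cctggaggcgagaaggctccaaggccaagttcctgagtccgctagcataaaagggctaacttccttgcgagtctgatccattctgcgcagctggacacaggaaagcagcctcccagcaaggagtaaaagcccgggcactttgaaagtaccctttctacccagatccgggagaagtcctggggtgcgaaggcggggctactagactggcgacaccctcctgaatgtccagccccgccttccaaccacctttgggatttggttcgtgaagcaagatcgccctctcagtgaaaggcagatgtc
Itgb5 held 3 such matches and the other genes none, where 35.7% of the 32851 promoters in the table held at least 1. CpG pairs numbered 20 in Itgb5, 23 in Itga8, 13 in Itgb8 and 12 in Itga1. Over all promoters the median was 7 and the quartiles were 3 and 20, so only Itga8 lay above the upper quartile. TATAAA and TGANTCA, the latter the AP-1 site, were found in none of the 4 on either strand and in 13.6% and 7.81% of all promoters. CCAAT was found once, in Itgb8, and in 37.4% of all. CANNTG, the E-box, was found in all 4, 3 times in Itgb5 and 2 times in each of the others, and in 72.3% of all. No matches of different patterns overlapped in these 4 windows, and the matches are letters only. Itgb5 and Itga8 shared no searched pattern but the E-box, which most promoters hold. Any tie between these patterns and the differences was not tested.

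Both cadherins best known from osteoblasts differed by less than 1.5-fold in each step. Cdh11, which encodes cadherin-11 or OB-cadherin, read 11.56, 11.57 and 11.33. The arrays without DMSO were alike, and the DMSO array was lower by 0.24 on the log2 scale, 1.18-fold. Its other probe set was 8.06, 8.0 and 7.49, a larger difference of -0.51 with DMSO in the same direction. Cdh2, which encodes N-cadherin, read 7.77, 7.81 and 7.83 and its other probe set 6.72, 6.67 and 6.85, so the DMSO array was the highest on both by at most 0.18 against osteogenic medium.

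Cdh1, which encodes E-cadherin, the cadherin of epithelia, had the largest differences of any member in these comparisons. Its single probe set read 3.87 in normal medium, 4.87 in osteogenic medium and 3.55 with DMSO. Only the osteogenic array was well above the floor of 3.54, and the other arrays were close to it. The difference was 1.0 on the log2 scale in osteogenic medium, a little under 2-fold, with 54 genes as high or higher, and -1.32 with DMSO, 2.50-fold lower, with 35 genes as low or lower. The 3.87 of normal medium was again the value held by 382 probe sets. With the floor at the 60th percentile the differences shrank to 0.39 and -0.39 and neither was 1.5-fold. Of 8 epithelial markers, 3 were measured. Epcam read 4.53, 4.48 and 4.41, while Krt8 at 3.58 and Cldn3 at 4.34 held equal values on all 3 arrays and the other 5 were below the floor, so the part of epithelial cells in the Cdh1 differences was not tested.

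A pair of dim cadherins had the same shape with smaller steps. Cdh26, an atypical cadherin, read 3.87, 4.24 and 3.63, higher by 0.37 and then 1.52-fold lower with DMSO. That call was lost with the floor at the 60th percentile, where the difference was 0.00, and under 2 of the 3 other scalings tried, quantile normalization and centring on the median of brighter probe sets. Cdh3, which encodes P-cadherin, read 3.41, 3.88 and 3.56, a difference of at least 0.34, since normal medium was below the floor, and -0.33 with DMSO. Both were highest on the osteogenic array, as was Cdh1. In normal medium the 3.87 of Cdh26 was the same value as that of Cdh1, held by 382 probe sets. The 3.41 of Cdh3 was held by 268 on that array. Of the 2242 measured genes with a mean log2 signal under 5, which include these 3, 1.87% were higher at least 1.5-fold in osteogenic medium and 2.77% lower with DMSO.

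The other measured cadherins differed by less than 1.5-fold. Cdh22 was 5.39, 5.18 and 5.21, a difference of -0.21 in osteogenic medium and 0.03 with DMSO. Cdh13, which encodes T-cadherin, a cadherin held by a lipid anchor without a cell-internal tail, was 4.48 on every array. Cdh20 was 3.77 on every array, a value shared with 371 to 418 probe sets. Equal values on all 3 arrays were seen for 3 of the 22 measured members and for 17.0% of all measured genes.

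**Figure D4:**
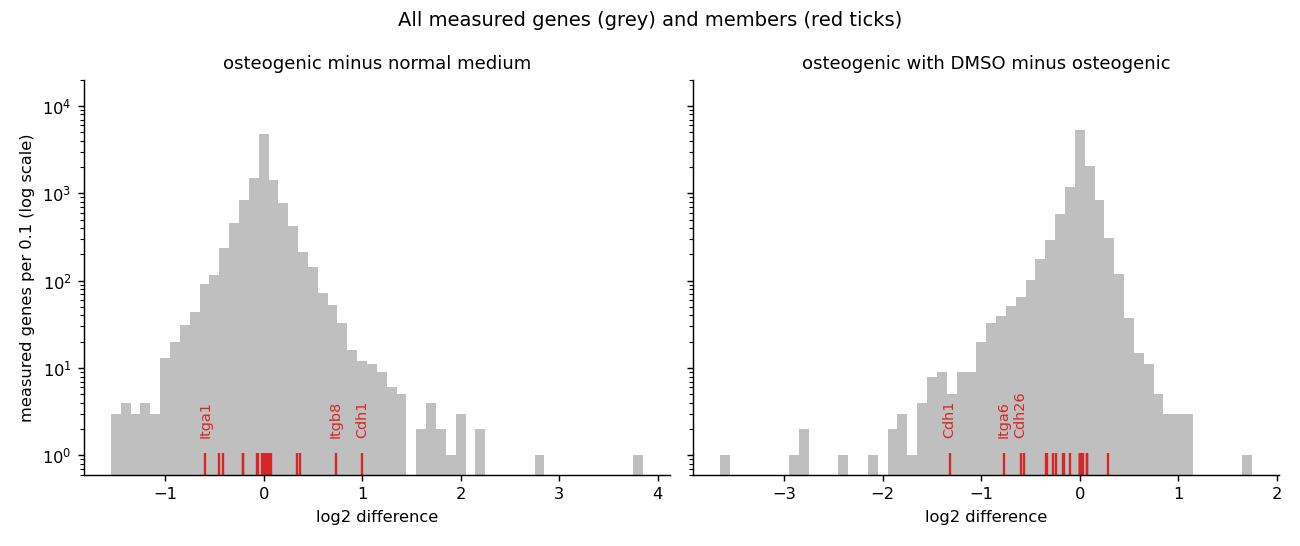
Number of measured genes by log2 difference in bins of 0.1, on a log axis (grey bars, 11350 genes), with a red tick for each of the 22 measured members and the names of those past 1.5-fold. Most members lie in the bulk around 0, and Cdh1 lies in the outer tail on opposite sides of the 2 panels.

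Set against normal medium, osteogenic medium with DMSO shows the sum of both steps and shares its arrays with them. In it, 3 of 22 members were lower at least 1.5-fold, Itga6 (-0.76), Itga8 (-0.75) and Itgb5 (-0.72), where 476 genes (4.19%) were, and none was higher, where 2.6% of genes were. None was 2-fold lower or higher, where 1.35% and 0.608% of genes were. All 3 are integrin subunits, as were 9 alpha and 5 beta genes of the 22 measured members. Cdh1, the furthest from 0 in each step, came back to -0.32. The members' median was -0.07, beside 0.00 for all genes. With all probe sets of a gene averaged, which brings in the one of Itga8 below the floor, Itga8 was at -0.37 and its call was lost.

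Genes that work with the receptors were described from lists, by counts and medians. Of the adaptors that tie integrins to actin, 27 of 30 were measured and none passed 1.5-fold in either step. Their median was -0.08 in osteogenic medium, with 15 below 0, 3 above and 9 equal, and 0.00 with DMSO. Over all measured genes, 4370 were below 0 in osteogenic medium, 4124 above and 2856 equal. Parva, which encodes parvin alpha, an actin-binding partner of integrin-linked kinase, went from 8.84 to 8.42 and 8.21, differences of -0.42 and -0.21. Vasp, an actin regulator of focal adhesions, was 8.76, 8.49 and 8.45. Tgfb1i1, which encodes Hic-5, was 8.19, 8.07 and 7.78, and the kinase gene Ptk2b was 4.06, 4.32 and 3.98.

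Catenins and other partners of the cell junction had 12 of 15 genes measured, medians of 0.00 in both steps and none past 1.5-fold. In osteogenic medium they ran from -0.16 to 0.15, nearer to 0 than the adaptors at -0.42 to 0.27. With DMSO they ran wider, from -0.51 to 0.31, beside -0.35 to 0.17 for the adaptors. Nectin2, an adhesion protein of adherens junctions, was 4.97, 4.81 and 4.29, a difference of -0.51 with DMSO. Nectin3, of the same family, was 8.61, 8.64 and 8.95, and Pkp4, a catenin relative, 7.22, 7.37 and 7.61, both highest with DMSO. Jup, which encodes plakoglobin, differed by 0.15 in osteogenic medium.

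Some of the ligands differed by more than 2-fold. Of 16 measured RGD and related ligands, 2 were higher at least 1.5-fold in osteogenic medium, Ibsp and Dmp1, beside 1.75% of all measured genes, and 4 were lower with DMSO, beside 2.11%. Ibsp, bone sialoprotein, read 8.0, 10.17 and 10.56. Dmp1, an acidic matrix protein, read 6.65, 7.83 and 5.01, a difference of -2.81 with DMSO. The others lower with DMSO were Ccn2 (-0.78), a matricellular protein, Edil3 (-0.73), an RGD protein that binds alpha-v receptors, and Vcam1 (-0.63), the ligand of alpha-4 integrins, whose own gene Itga4 was below the floor. The list's median with DMSO was -0.35, beside 0.00 over all genes.

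Basement membrane ligands had a median below 0 in osteogenic medium. Of 9 measured laminin and nidogen genes the median was -0.25, beside 0.00 over all genes, and 1, Lamb1, was lower at least 1.5-fold, beside 1.59% of all measured genes. Lamb1, a laminin beta chain, read 10.08, 9.49 and 9.01, and Nid2, a nidogen that links laminin to collagen IV, 8.09, 7.57 and 7.52. Lamb3 was 3.89, 3.58 and 3.18. With DMSO the list's median was -0.04, with Lamc1 at 0.20 and Lama4 at -0.14 beside Lamb1 at -0.48. Of 10 collagen genes none passed 1.5-fold in either step, and the medians were 0.00 and -0.07. The collagen IV genes Col4a1 (9.37, 8.84 and 8.58) and Col4a2 (8.90, 8.50 and 8.40) stepped down in both, while Col1a1 was 12.28, 12.32 and 12.50 and Col5a1 was 10.28, 10.00 and 10.16.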

How the data were processed

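Total RNA (RNA integrity number over 9.5) was labelled with a 3' IVT kit, which starts at the poly(A) end of a transcript, and hybridised to 3 mouse arrays, per the labels' protocols. The deposited values are read as log2 signals from their range; how the authors summarised and normalized them, and the log base, is not given in the sources used here. Of 45037 probe sets that are not array controls, 34945 had 1 gene symbol in the platform annotation of the array, 932 had more and 9160 had none here. Probe sets with 1 symbol were used, and all 44 members were found by gene number with the same symbol in the GRCm38.p6 gene table. Values under the floor were raised to it. Groups came from the sample descriptions, and differences between arrays were counted over all measured genes, with no test. All members above the floor on at least 1 array are named, and from each list of ligands and partners the 3 genes with the largest differences in each of the first 2 comparisons. The members and lists were chosen with earlier results of these data known. Alternatives were the floor, the probe set rule, 3 scalings (limma 3.58.1 in R 4.3.3 for cyclic loess and quantiles), the fold, the handling of equal values and Itga2b. Python 3.11.15, numpy 2.4.6, pandas 2.3.3 and matplotlib 3.10.9 were used. The steps were tested on simulated data, for osteogenic against normal medium. All 50 genes changed by 1 and all 50 changed by -1 on the log2 scale were called. So were 0 of 50 changed by 0.3, 2 of 50 changed by -0.3 and 0 of 11157 unchanged measured genes. The noise put in was taken from the SD of a probe set, without the spread between cultures. The changed genes were drawn from genes well above the floor, unlike Cdh1, Cdh3 and Cdh26. The run therefore checks the steps only and gives no rate of false calls for these arrays.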

Additional observations from a re-analysis of the deposited data

How the results depend on the processing

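No paired analysis was possible because each medium has 1 array and the labels give no replicate numbers. With the call at 2-fold, members higher and lower in osteogenic medium numbered 0 and 0, those lower with DMSO 1, and those lower with DMSO against normal medium 0. With the floor at the 60th percentile, which left 14 measured members, 1 member was higher in osteogenic medium and 1 lower with DMSO. Quantile normalization left 0 lower in osteogenic medium. Leaving out members with equal values moved the median with DMSO to -0.16. The other 82 of 90 counts and medians stayed within 1.5 times, or within the SD of a probe set. Of 552 differences of single members under alternatives, 24 moved by more than that SD, and no 1.5-fold difference changed sign. Itgb8 (osteogenic medium), Itga6 (DMSO, -0.82 to -0.75) and Itgb5 (both steps together, -0.73 to -0.67) kept their calls under all 8 alternatives run on single members. Several of the 8 could not have changed them. The floors tried lay below the signals of these genes, and leaving out shared probe sets kept the same probe set for each. Itgb8 has 1 probe set, so only the scalings could move it. Low signal limits Cdh1, Cdh3, Cdh26 and the members at or near the floor, and with 1 array a medium the spread between cultures is unknown.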

Other observations

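Itga2b, the platelet alpha-IIb subunit, has a letter after its number and was not among the 44 genes. Its log2 signal was 6.27 in normal medium and 6.25 in both osteogenic media, and counting it as a member left every count of 1.5-fold differences as it was and moved the members' median with DMSO to 0.00.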
